A study of Mus musculus with 2 samples.

Results

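Microfold cells were thymic epithelial cells to which the authors' cell table gave the class Microfold, after the microfold (M) cells of the gut. The class held 152 of 9185 annotated cells, and the deposited class name alone decided membership. The study profiled single cells of the thymic medulla's epithelium from C57BL/6 mice, of the fraction called mTEClo that lacks Pdpn and CD104, to ask what they lose without the nuclear receptors Hnf4a and Hnf4g. Samples were marked with DNA-tagged antibodies (hash tags) and pooled into 1 droplet library. Hnf4dTEC samples, 4 in all, had the genotype Foxn1(cre/+) Hnf4a(fl/fl) Hnf4g(-/-). Hnf4ctrl samples, 3 in all, had the genotype Foxn1(cre/+) Hnf4a(fl/+) Hnf4g(+/-). Both groups thus carried the cre, and Hnf4ctrl samples also carried a floxed copy of Hnf4a and a null copy of Hnf4g, so no wild type was measured. Foxn1-cre recombines floxed genes in thymic epithelium, whereas the null Hnf4g allele is present in every cell of the animal. The labels give no age and do not say that each hash sample was a separate animal.

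M cells sit over the lymphoid follicles of the gut, where they carry bacteria and particles from the lumen to immune cells. They form when the cytokine RANKL acts on its receptor RANK and, through the non-canonical NF-kB pathway, on the transcription factors Spib and Sox8. Thymic mimetic cells are epithelial cells that resemble cell types of other organs and so display the antigens of those organs to developing T cells. Hnf4a and Hnf4g are related transcription factors best known for driving genes of the absorptive gut lining and, for Hnf4a, of the liver.

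The 8 to 33 Microfold cells of a sample carried 82795 to 520640 UMIs (tags that each mark 1 captured RNA molecule), against 10127838 to 25821970 UMIs for all annotated cells of a sample. Hnf4dTEC replicates 1 to 4 held 20, 22, 26 and 8 Microfold cells, and Hnf4ctrl replicates 1 to 3 held 18, 25 and 33. The median Microfold cell had 12228 UMIs and 3597.5 genes, with medians of 11415.5 UMIs in Hnf4dTEC and 13939.5 UMIs in Hnf4ctrl Microfold cells. Hnf4dTEC replicate 4, with 8 cells, stayed out of the tests between genotypes, which compared 3 samples with 3. Entero-hepato cells, a mimetic class with gut and liver genes, numbered 3 in Hnf4dTEC and 82 in Hnf4ctrl samples, so the other cells of the 2 genotypes did not have the same makeup.

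The class name was checked against 6 M cell markers. These were Gp2, the receptor with which gut M cells take up bacteria with type 1 pili, the transcription factors Spib and Sox8, the chemokines Ccl20 and Ccl9, and Tnfaip2, which takes part in forming thin membrane tubes between cells. After each cell was thinned to 5000 UMIs, which left 137 Microfold cells, the median Microfold cell had UMIs of 5 of the 6 markers, 107 cells (78.1%) had at least 4, 38 had all 6 and 0 had none. In each of the other 14 classes at most 2.46% of cells had 4 or more. Among Microfold cells, 46 of 67 Hnf4dTEC cells (68.7%) and 61 of 70 Hnf4ctrl cells (87.1%) had at least 4, with all 6 in 11 Hnf4dTEC and 27 Hnf4ctrl cells. These markers define M cells, and cells were classed by expression, so the values describe the class and test nothing.

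With all samples summed, the 6 markers differed in how far they set the class apart. Levels are CPM, the UMIs of a gene summed over a class and scaled to a common total, without replicates. Ccl20, the ligand that draws CCR6-bearing lymphocytes, stood at 8020 CPM in Microfold cells and at 956 CPM in the next class, Entero-hepato. Ccl9 stood at 1171 CPM, with 215 CPM in Entero-hepato cells. Tnfaip2 was at 1201 CPM, against 136 CPM in Keratinocyte cells. Spib and Sox8 were at 1030 and 150 CPM in Microfold cells, and in both cases Tuft cells came next, with 329 and 10.5 CPM. Gp2 was the exception, since its 1728 CPM in Microfold cells lay below the 2344 CPM of Klk-rich cells, and Ionocyte, Secretory and Tuft cells had 954, 821 and 340 CPM. Among other genes of M cells, RANK itself (Tnfrsf11a) reached 701 CPM and osteoprotegerin (Tnfrsf11b), the decoy receptor for RANKL, 1375 CPM, with 168 CPM for Tnfrsf11b in the next class. Hnf4g was at 628 CPM in Microfold and 717 CPM in Entero-hepato cells, and at 51.4 CPM in Tuft cells, while Hnf4a was at 2.44 CPM in Microfold cells.

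**Figure D1:**
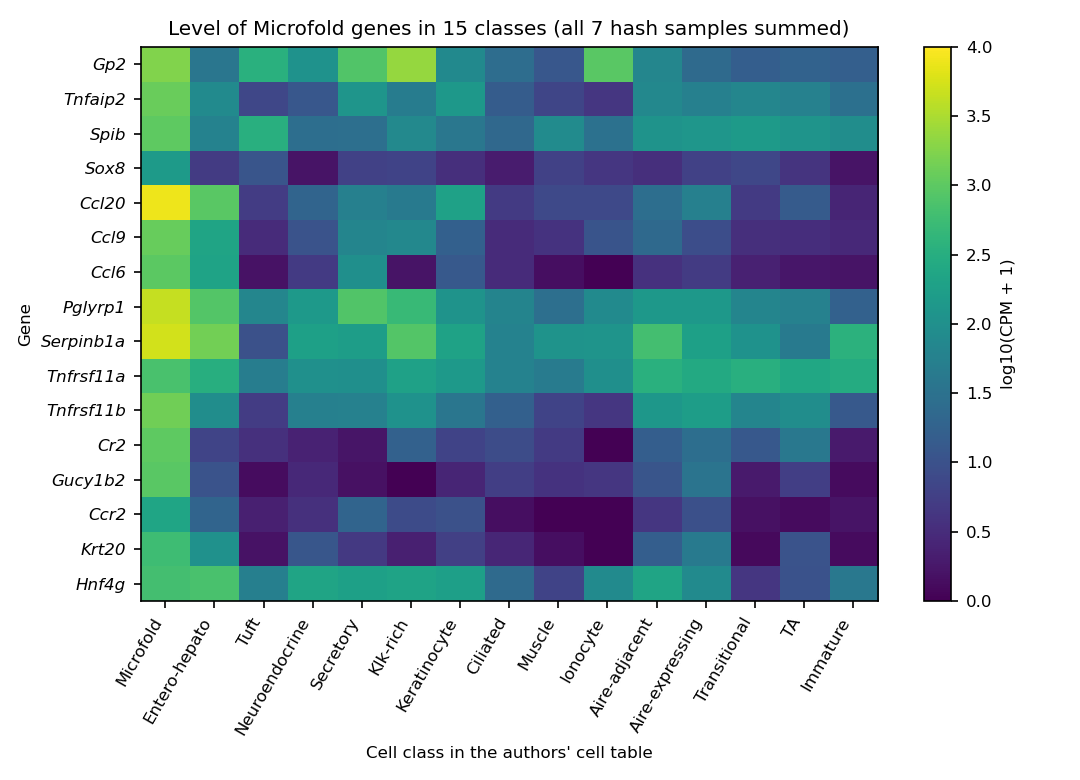
Level of 16 genes (rows) in the 15 classes of the authors' cell table (columns), as log10(CPM + 1) of UMIs summed over all 7 hash samples. Ccl20, Ccl9, Sox8, Cr2 and Gucy1b2 are brightest in the Microfold column, Gp2 is also bright in Klk-rich cells, and Hnf4g is near equal in Microfold and Entero-hepato cells.

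Chemokines and receptors of immune cells were among the first when genes were ordered by the ratio of CPM in Microfold cells to CPM in the other annotated cells of the same sample. The ratio was the median over 6 samples, among 2150 genes with at least 50 CPM in Microfold cells of every sample. The first 15 included 1700003P14Rik, Ccl20, Gucy1b2, Cr2, Ccl9, Gm50069, Dmbt1, Gm37800, Cyp2j13, Gm38335, Ccl6, Ecel1, 1700016F12Rik and Ccr2. Ccl20 had a median ratio of 211 (range over samples 112 to 439). Gucy1b2, a soluble guanylate cyclase subunit, had a ratio of 172 (60.6 to 406), and Cr2, the complement receptor of B cells and follicular dendritic cells, one of 134 (46.7 to 272). The chemokine receptor Ccr2, on chromosome 9 (124101950-124113557, plus strand, GENCODE release 21), had a ratio of 75.4 (32.1 to 104). It belongs to a family with close copies, so its count may include reads of others. Dmbt1, a scavenger protein of mucosal surfaces, had a ratio of 108 (18.2 to 178). The first, the long non-coding RNA 1700003P14Rik, had a ratio of 992 (82.8 to 1830.3) over a level of 0.38 CPM in the other cells. Of those named, Ccl6 alone passed the test between genotypes described below.

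Between genotypes, the Microfold share of annotated cells averaged 1.28% ± 0.520 (SD, n = 4) in Hnf4dTEC and 2.36% ± 0.335 (SD, n = 3) in Hnf4ctrl samples. Singly, the shares were 1.21%, 1.598%, 1.747% and 0.583% in Hnf4dTEC replicates 1 to 4, against 2.25%, 2.73% and 2.09% in Hnf4ctrl replicates 1 to 3. All 4 Hnf4dTEC shares lay below all 3 Hnf4ctrl shares. The difference did not pass the test over classes (log2 fold change -0.86, SE 0.38, edgeR adjusted p = 0.304 over 15 classes). A two-sided exact permutation test over 35 arrangements gave p = 0.0571. Since the groups were fully separated, this was the smallest p the permutation test could give for a lower share. A lower share here cannot be told apart from a higher number of other cells.

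The targeted genes were looked at first. Hnf4a gave 0 UMIs in every Hnf4dTEC sample, against 0, 1 and 4 UMIs in Hnf4ctrl replicates 1 to 3, too few to test. Hnf4g had 600, 472 and 387 CPM (scaled by TMM, the trimmed-mean normalization of edgeR) in Hnf4dTEC replicates 1 to 3, against 631, 698 and 1235 CPM in Hnf4ctrl replicates 1 to 3. The 2 groups did not overlap, but the log2 fold change of -0.82 (SE 0.28) did not pass, at an edgeR adjusted p of 0.160. The labels do not say which part of Hnf4g the null allele removes, and reads at the 3' end may lie outside it, so its RNA does not check the genotype. Foxn1, whose locus carries the cre, had 12, 13 and 7 UMIs in Hnf4dTEC replicates 1 to 3 and 3, 11 and 12 in Hnf4ctrl replicates 1 to 3 (log2 fold change 0.56, edgeR adjusted p = 0.644).

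In Microfold cells, 109 genes were lower and 32 higher in Hnf4dTEC than in Hnf4ctrl samples among 4656 tested, which is 2.34% and 0.687% of the genes tested. The test was edgeR's quasi-likelihood test with Benjamini-Hochberg adjustment over all genes at 0.05. Every one of the 109 and of the 32 showed no overlap between the 3 samples of each genotype, while 11.4% of all tested genes had all Hnf4dTEC samples below and 10.6% had them all above. Calls and separation come from the same values, so the separation of called genes adds no support to them. The median log2 fold change of the lower genes was -2.33 (range -6.70 to -0.79) and that of the higher genes 1.77 (range 0.94 to 2.88), while all genes tested had a median of 0.01. The counts moved with each sample left out. Without Hnf4ctrl replicates 1, 2 or 3 the test called 61, 53 and 51 lower and 15, 15 and 24 higher genes, and without Hnf4dTEC replicates 1, 2 or 3 it called 21, 57 and 67 lower and 7, 16 and 28 higher genes.

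M cell genes fell in part. Of 19 genes of a list of M cell genes, all tested, 5 fell, 0 rose and 14 did not pass, with a median log2 fold change of -0.39 against 0.01 over all genes. Over all genes tested, 2.34% were called lower and 0.687% higher. All Hnf4dTEC samples lay below all Hnf4ctrl samples for 8 of the 19 and above for 2, against 11.4% and 10.6% of all genes tested. The 2 above are near the share over all genes and so are no result about the list. Those that fell were the uptake receptor Gp2, the chemokine Ccl6, the peptidoglycan-binding protein Pglyrp1, the phosphatidylserine-binding annexin Anxa5 and Serpinb1a, an inhibitor of neutrophil proteases that has close copies in its gene cluster.

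Gp2 had 458, 1257 and 479 CPM in Hnf4dTEC replicates 1 to 3, against 2192, 3608.5 and 3367 CPM in Hnf4ctrl replicates 1 to 3. The highest Hnf4dTEC sample was thus well under the lowest Hnf4ctrl sample. Hnf4dTEC replicate 4, not in the test, had 7 Gp2 UMIs, which is 84.5 CPM without TMM scaling. The fall was 2.06 on the log2 scale (SE 0.38, edgeR adjusted p = 0.0205). After thinning to 5000 UMIs, 25 of 67 Hnf4dTEC cells (37.3%) and 42 of 70 Hnf4ctrl cells had a Gp2 UMI, against 23.6% of Tuft and 31.1% of Secretory cells. Before thinning these were 34 of 76 Hnf4dTEC and 48 of 76 Hnf4ctrl cells, at median depths of 12228 UMIs for Microfold and 12186 UMIs for Tuft cells. One cell held 36.2% of all Gp2 UMIs of the Hnf4dTEC samples. When 1 sample was left out, Gp2 passed without Hnf4ctrl replicate 1 or Hnf4dTEC replicate 2 (edgeR adjusted p = 0.0362 and 0.00284), and did not pass without Hnf4ctrl replicates 2 or 3 or Hnf4dTEC replicates 1 or 3 (edgeR adjusted p = 0.0618, 0.0504, 0.0948 and 0.0622).

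Ccl6 was at 316, 386 and 501 CPM in Hnf4dTEC replicates 1 to 3, against 1270.3, 1434 and 2282 CPM in Hnf4ctrl replicates 1 to 3. It fell by 2.05 on the log2 scale (SE 0.27, edgeR adjusted p = 0.00506) and passed without any 1 sample. Pglyrp1 was at 2116, 3392 and 2724 CPM in Hnf4dTEC replicates, against 5663, 6552 and 8402 CPM in Hnf4ctrl replicates. Its fall of 1.32 (SE 0.23, edgeR adjusted p = 0.0180) passed except without Hnf4dTEC replicate 1 (edgeR adjusted p = 0.0796). Anxa5 averaged 1131 ± 282 CPM in Hnf4dTEC and 2520.2 ± 662 CPM in Hnf4ctrl samples (SD, n = 3 each), a fall of 1.16 (SE 0.25, edgeR adjusted p = 0.0337). Serpinb1a averaged 3765 ± 1415 CPM in Hnf4dTEC and 8235 ± 708 CPM in Hnf4ctrl samples (SD, n = 3 each), a fall of 1.13 (SE 0.26, edgeR adjusted p = 0.0440). Both of these calls were fragile. Anxa5 passed only without Hnf4ctrl replicate 1 (0.0396) or Hnf4dTEC replicate 3 (0.0346), with edgeR adjusted p = 0.0802, 0.0890, 0.141 and 0.113 without Hnf4ctrl replicates 2 and 3 and Hnf4dTEC replicates 1 and 2. Serpinb1a passed only without Hnf4dTEC replicate 3 (0.0188), with 0.107, 0.0832, 0.0878, 0.126 and 0.125 without Hnf4ctrl replicates 1, 2 and 3 and Hnf4dTEC replicates 1 and 2.

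The chemokine Ccl20 had 8165, 7989 and 11033 CPM in Hnf4dTEC replicates 1 to 3, against 9593, 8892 and 9229 CPM in Hnf4ctrl replicates 1 to 3. The ranges overlapped, and the log2 fold change was -0.03 (95% interval -0.44 to 0.39, edgeR adjusted p = 0.9749). Ccl9 likewise overlapped, with 1249 ± 243 CPM in Hnf4dTEC and 1343 ± 179 CPM in Hnf4ctrl samples (SD, n = 3 each; log2 fold change -0.10, 95% interval -0.55 to 0.34). Spib had 928, 1093 and 1097 CPM in Hnf4dTEC replicates, against 1549, 1134 and 1175 CPM in Hnf4ctrl replicates. Its groups did not overlap, yet the log2 fold change of -0.31 (95% interval -0.73 to 0.12, edgeR adjusted p = 0.482) did not pass. Sox8, at 126, 141 and 153 CPM in Hnf4dTEC replicates and 184, 199 and 185 CPM in Hnf4ctrl replicates, gave -0.43 (95% interval -0.90 to 0.03, edgeR adjusted p = 0.342), and Tnfaip2 gave -0.63 (95% interval -1.09 to -0.16, edgeR adjusted p = 0.146). The 8 genes with all Hnf4dTEC samples lower were the 5 that fell together with Spib, Sox8 and Tnfaip2. The 2 with all Hnf4dTEC samples higher were Marcksl1, a substrate of protein kinase C at the membrane (log2 fold change 0.42, edgeR adjusted p = 0.253), and Cyba, a subunit of the NADPH oxidase (0.36, edgeR adjusted p = 0.365).

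**Figure D2:**
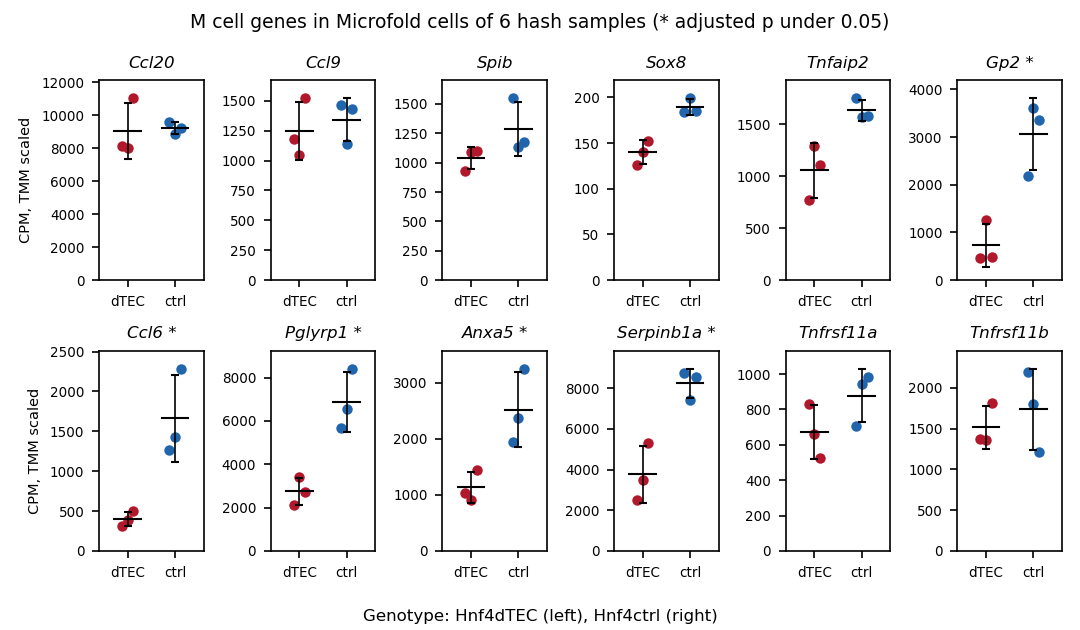
CPM with TMM scaling (vertical axes, from 0) of 12 genes of the M cell list in the Microfold cells of 3 Hnf4dTEC (red, left) and 3 Hnf4ctrl (blue, right) hash samples; points are samples, bars the mean and SD, and a star marks an edgeR adjusted p under 0.05. Gp2, Ccl6, Pglyrp1, Anxa5 and Serpinb1a separate, while Ccl20 and Ccl9 overlap.

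Lists of the signalling and uptake machinery of M cells held no called gene, which is near the 2.34% lower and 0.687% higher called over all genes for lists of this size and so is no result about them. Of 21 genes of the RANK and NF-kB pathway, 18 were tested and 0 passed, with a median log2 fold change of 0.07 (range -0.64 to 0.77). RANK (Tnfrsf11a) overlapped between genotypes, with 671 ± 152 CPM in Hnf4dTEC and 878 ± 151 CPM in Hnf4ctrl samples (SD, n = 3 each; log2 fold change -0.39, 95% interval -0.88 to 0.11). Relb, the DNA-binding partner of the non-canonical arm, gave 0.22 (95% interval -0.27 to 0.71) and Nfkb2, which encodes the other partner, 0.64 (95% interval 0.16 to 1.13, edgeR adjusted p = 0.153). Of 19 genes of endocytosis and lysosomes, 17 were tested and 0 passed (median log2 fold change -0.23). The lowest was the lysosomal protease Ctsl, with 10, 14 and 13 UMIs in Hnf4dTEC replicates and 33, 37 and 33 in Hnf4ctrl replicates (log2 fold change -1.29, edgeR adjusted p = 0.0747). MHC class II genes, with which thymic epithelium shows antigens to CD4 T cells, had 0 passing of 8 tested (median 0.03), and genes of thymic epithelial identity had 0 of 9 (median 0.02). For none of these genes does a missed threshold show an equal level.

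Genes of the absorptive gut lining were among those that fell. Of all genes tested, 2.34% were called lower and 0.687% higher, with a median log2 fold change of 0.01. Of 23 genes of the absorptive brush border, 14 were tested and 5 fell, namely Mep1a, Muc13, Cdhr5, Anks4b and Vil1, with 0 higher and a median log2 fold change of -0.69. Of 17 genes of fat absorption, 4 were tested and 3 fell, the apolipoproteins Apoc3 and Apoa4 and the fatty acid binding protein Fabp1. Of 16 plasma proteins of the liver, Trf (transferrin) was the only 1 with enough UMIs to test, and it fell. Because a gene had to be expressed in Microfold cells of 1 group to be tested, and these genes could be high in Hnf4ctrl samples only, the counts over tested genes carry no weight of their own.

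Mep1a, a metalloprotease subunit of the brush border, had 15.8, 31.2 and 28.4 CPM in Hnf4dTEC replicates 1 to 3, against 262, 267 and 256 CPM in Hnf4ctrl replicates 1 to 3. The Hnf4ctrl samples thus lay close together, and the fall was 3.35 on the log2 scale (SE 0.28, edgeR adjusted p = 0.000499). After thinning to 5000 UMIs a Mep1a UMI was found in 5 of 67 Hnf4dTEC and 33 of 70 Hnf4ctrl cells, against 0.18% of Tuft and 43.6% of Entero-hepato cells (10 of 76 Hnf4dTEC and 51 of 76 Hnf4ctrl cells before thinning). Muc13, a membrane mucin, had 2, 7 and 3 UMIs in Hnf4dTEC replicates, against 54, 86 and 219 UMIs in Hnf4ctrl replicates (fall of 4.50, SE 0.46, edgeR adjusted p = 0.00197). Cdhr5, a cadherin that links microvilli to each other, was at 39.6 ± 9.80 CPM in Hnf4dTEC and 218 ± 58.5 CPM in Hnf4ctrl samples (SD, n = 3 each; fall of 2.47, SE 0.31, edgeR adjusted p = 0.00375). Anks4b, a scaffold of the same microvillar links, had 3 UMIs in Hnf4dTEC and 48 in Hnf4ctrl samples (edgeR adjusted p = 0.0191), and the actin bundler villin (Vil1) had 5 in Hnf4dTEC and 64 in Hnf4ctrl samples (edgeR adjusted p = 0.0295). In CPM, Anks4b in Hnf4ctrl samples was 12.9 times Hnf4dTEC samples, with an exact 95% counting interval of 4.17 to 64.9. These last 2 rested on few UMIs: Anks4b passed only without Hnf4dTEC replicate 2 (0.0435), and was at 0.0805, 0.0543, 0.0591, 0.0815 and 0.0645 without Hnf4ctrl replicates 1, 2 and 3 and Hnf4dTEC replicates 1 and 3. Vil1 did not pass once any 1 sample was left out, at 0.0568, 0.0603 and 0.169 without Hnf4ctrl replicates 1, 2 and 3, and at 0.112, 0.0589 and 0.0853 without Hnf4dTEC replicates 1, 2 and 3.

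Fabp1, which binds fatty acids in gut and liver, had 12, 83 and 21 UMIs in Hnf4dTEC replicates 1 to 3, against 353, 464 and 506 UMIs in Hnf4ctrl replicates 1 to 3. It fell by 3.29 on the log2 scale (SE 0.55, edgeR adjusted p = 0.0163, and 0.0654 without Hnf4dTEC replicate 1). Its level in Microfold cells of Hnf4ctrl samples, 1219 CPM, was above the 226 CPM of their Entero-hepato cells. Apoc3 had 0, 0 and 2 UMIs in Hnf4dTEC replicates and 61, 18 and 89 UMIs in Hnf4ctrl replicates (edgeR adjusted p = 0.00631), found in 1 of 67 Hnf4dTEC and 12 of 70 Hnf4ctrl cells after thinning, against 0.644% of Tuft and 35.9% of Entero-hepato cells (1 of 76 Hnf4dTEC and 17 of 76 Hnf4ctrl cells before thinning). Apoa4 had 2, 2 and 8 UMIs in Hnf4dTEC replicates and 68, 24 and 187 UMIs in Hnf4ctrl replicates (edgeR adjusted p = 0.0119, and 0.0796 without Hnf4dTEC replicate 1). Trf had 1, 0 and 0 UMIs in Hnf4dTEC replicates and 49, 50 and 63 UMIs in Hnf4ctrl replicates (edgeR adjusted p = 0.000499). For Apoc3 and Trf, Hnf4ctrl over Hnf4dTEC CPM had exact 95% counting intervals of 18.5 to 565 and 23.2 to 5203. Reg3g, a lectin of the gut lining that kills Gram-positive bacteria, was named after its value was seen: it averaged 2490.4 ± 583 CPM in Hnf4dTEC and 7900.0 ± 3480 CPM in Hnf4ctrl samples (SD, n = 3 each; fall of 1.66, SE 0.30, edgeR adjusted p = 0.0198). Reg3g did not pass without Hnf4dTEC replicate 1 or 2 (0.104 and 0.0663), and 1 cell held 22.2% of its Hnf4ctrl UMIs. With all samples summed, Reg3g was at 4500 CPM in Microfold cells. Secretory, Entero-hepato and Klk-rich cells had more, at 11109, 11107 and 7112 CPM. The other annotated cells were also lower in Reg3g, by less, with 714 CPM in Hnf4dTEC and 1243 CPM in Hnf4ctrl samples (mean of 3 samples each).

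These genes include markers of Entero-hepato cells, which were nearly absent from Hnf4dTEC samples. Summed over 8 such markers, Microfold cells had 50.3, 332, 95.8 and 326 CPM in Hnf4dTEC replicates 1 to 4, against 1794, 1945 and 1948 CPM in Hnf4ctrl replicates 1 to 3. Of the 8, 4 were tested and all 4 fell (Apoc3, Fabp1, Muc13 and Vil1), while 2.34% of all genes tested were called lower. Here too a gene could pass the count filter through Hnf4ctrl samples only, so this count carries no weight of its own. The summed level was 113 CPM in Hnf4dTEC and 124 CPM in Hnf4ctrl Tuft cells, where Fabp1 had 92.5 CPM with genotypes pooled. For Entero-hepato cells it was 3039 CPM in Hnf4dTEC, from 3 cells, and 3191 CPM in Hnf4ctrl samples. Hnf4dTEC sums were lower in further classes: Klk-rich (35.8 against 135 CPM), Secretory (44.7 against 117) and Neuroendocrine (56.3 against 111). The same held for Keratinocyte (18.5 against 49.65) and Aire-adjacent cells (23.8 against 73.4). Only Immature, Ionocyte and Transitional cells had higher sums in Hnf4dTEC samples. These class sums were not tested. Of thinned cells, 3.0% of Hnf4dTEC and 55.7% of Hnf4ctrl Microfold cells had a Muc13 UMI, against 1.31% of Tuft and 53.8% of Entero-hepato cells. Ttr, the plasma protein that stood at 504 CPM in Entero-hepato cells, gave 1 UMI in Hnf4dTEC and 0 in Hnf4ctrl Microfold cells. In Hnf4ctrl samples, Entero-hepato was the class with the highest level outside Microfold for 50 of the 109 lower genes (45.9%), against 353 of the 4656 genes tested (7.58%). Microfold cells were above every other class for 46 of the 109 (42.2%), against 548 of the 4656 (11.8%). The calls rest on the same Hnf4ctrl samples and favour genes high in them, so these shares describe the called genes and test nothing. Whether Entero-hepato RNA or doublets contributed was not tested gene by gene. Without the 5 Microfold cells that Scrublet marked as doublets, the test called 152 lower and 59 higher genes.

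**Figure D3:**
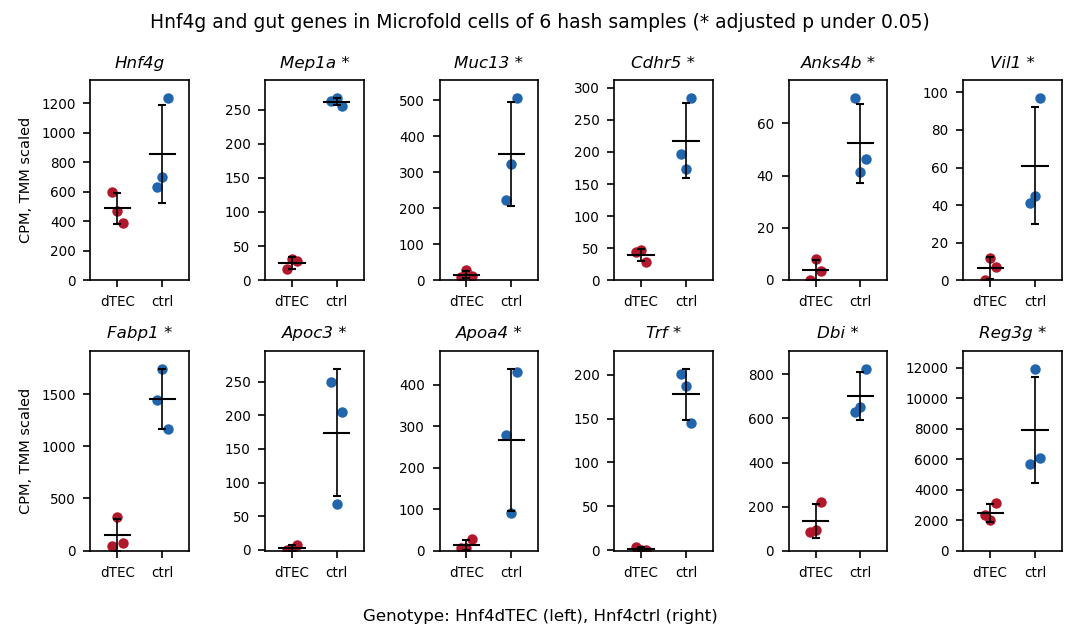
CPM with TMM scaling (vertical axes) of Hnf4g and 11 genes of the gut lining in the Microfold cells of 3 Hnf4dTEC (red, left) and 3 Hnf4ctrl (blue, right) hash samples. Points are samples, bars the mean and SD, and a star marks an edgeR adjusted p under 0.05. Axes start at 0, or below it for Anks4b, Fabp1, Apoc3 and Trf, whose SD in Hnf4dTEC samples exceeds the mean. Mep1a stood between 15.8 and 31.2 CPM in Hnf4dTEC and between 256 and 267 CPM in Hnf4ctrl samples.

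Transcription factors of gut and liver gave no call. Of a list of 22, which includes the targeted genes, 6 were tested, Hnf4g among them, and 0 passed, while 16 were not tested. Over all genes 2.34% were called lower and 0.687% higher, so 0 of 6 is no result about these factors. Cdx1, of the intestine, had 268, 199 and 195 CPM in Hnf4dTEC replicates 1 to 3, against 143, 165 and 113 CPM in Hnf4ctrl replicates 1 to 3, above them in every sample (log2 fold change 0.66, SE 0.24, edgeR adjusted p = 0.184). Nr5a2, a nuclear receptor of gut and liver with 0 UMIs in Hnf4dTEC and 26 in Hnf4ctrl samples, was under the count filter. Lgals4, a galectin of the brush border, had 3 UMIs in Hnf4dTEC and 212 in Hnf4ctrl samples and was under the filter too, with 8, 31 and 173 in Hnf4ctrl replicates 1 to 3. Apoa1 rested on 1 library, with 149 of its Hnf4ctrl UMIs in replicate 3 and 0 in replicates 1 and 2.

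The 20 lower genes with the smallest p were not all members of the gut and liver lists. Besides Mep1a, Trf, Muc13, Cdhr5, Ccl6 and Apoc3 they were Prickle2, Cotl1, Thbs1, Trdn, Far2, Gpa33, Trim31, Ddc, Map1b, Col4a1, Aoah, Ptprd, Nostrin and Dbi, all with edgeR adjusted p of at most 0.00697. Among these further genes, Entero-hepato was the highest class outside Microfold for Gpa33, Cotl1, Nostrin, Dbi and Trim31, with all samples summed. For the others it was another class. Whether they belong to a gut programme was not tested. Gpa33, an adhesion protein of the intestinal lining, was at 41.7 ± 5.71 CPM in Hnf4dTEC and 210 ± 52.6 CPM in Hnf4ctrl samples (SD, n = 3 each; fall of 2.34, SE 0.29). Aoah, which removes acyl chains from bacterial lipopolysaccharide, had 0, 1 and 1 UMIs in Hnf4dTEC replicates and 21, 13 and 25 in Hnf4ctrl replicates (Hnf4ctrl over Hnf4dTEC CPM 23.8, exact 95% counting interval 6.31 to 201). Thbs1, the matrix protein thrombospondin, was at 11.8, 23.4 and 42.6 CPM in Hnf4dTEC replicates, against 217, 263 and 217 CPM in Hnf4ctrl replicates (fall of 3.12, SE 0.35). Dbi, which binds acyl-CoA, was at 86.9, 93.7 and 224 CPM in Hnf4dTEC replicates, against 627, 650 and 824 CPM in Hnf4ctrl replicates (fall of 2.37, SE 0.34).

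Nostrin, which guides the trafficking of nitric oxide synthase, had 237, 156 and 298 CPM in Hnf4dTEC replicates and 795, 939 and 676 CPM in Hnf4ctrl replicates (fall of 1.79, SE 0.26). Cotl1, an actin-binding protein, averaged 25.0 ± 6.27 CPM in Hnf4dTEC and 162 ± 13.9 CPM in Hnf4ctrl samples (SD, n = 3 each; fall of 2.67, SE 0.30), and Col4a1, a chain of basement membrane collagen, fell by 2.67 (SE 0.37). Trim31, a ubiquitin ligase of the RING type, had 0, 1 and 2 UMIs in Hnf4dTEC replicates and 23, 24 and 30 in Hnf4ctrl replicates (Hnf4ctrl over Hnf4dTEC CPM 20.7, exact 95% counting interval 6.84 to 103). Each of these genes had all Hnf4dTEC samples below all Hnf4ctrl samples, as every called gene did. Of the 20, 18 passed without any 1 sample, and Nostrin and Dbi failed only without Hnf4dTEC replicate 1 (edgeR adjusted p = 0.0614 and 0.0523). Trf overlaps a second annotated gene on its strand, so its reads may include that gene's.

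Promoters were searched for HNF4-type sites; Apoc3 and Apoa4 are known targets of HNF4 factors. The promoter windows were 300 bases long, 250 before and 50 after the RefSeq start (build GRCm38.p6), and 83 of the 109 lower genes and 21 of the 32 higher genes had one. The patterns were CAAAGTCCA, CAAAGGTCA and CAAAGTTCA, each on both strands. At least 1 occurred in 9 of 83 lower genes (10.8%), in 0 of 21 higher genes, in 50 of 3671 genes tested (1.36%) and in 413 of all 27025 promoters (1.53%). A wider pattern, CAAAGNCCA, which contains the first, occurred in 5 of 83 lower genes (6.02%) and in 617 of 27025 promoters (2.28%). The patterns were picked with part of the results in view, and a match is a description of letters, not a bound site. Below are 5 such windows of genes described above, read along the gene's strand, with the match in capitals. In Ccl6, Anks4b and Trim31 the match is on the other strand.
Ccl6, chr11:83593137-83593205, minus strand: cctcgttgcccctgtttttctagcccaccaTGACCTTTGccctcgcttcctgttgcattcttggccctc
Anks4b, chr7:120173769-120173837, plus strand: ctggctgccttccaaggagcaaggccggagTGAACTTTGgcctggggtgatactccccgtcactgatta
Apoa4, chr9:46240632-46240700, plus strand: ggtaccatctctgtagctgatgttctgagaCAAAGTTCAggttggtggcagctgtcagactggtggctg
Nostrin, chr2:69135609-69135677, plus strand: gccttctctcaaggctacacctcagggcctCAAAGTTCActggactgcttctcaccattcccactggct
Trim31, chr17:36897970-36898038, plus strand: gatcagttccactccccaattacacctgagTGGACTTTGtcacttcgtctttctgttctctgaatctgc
The first base of the match lay 88, 59, 182, 161 and 130 bases before the start of Ccl6, Anks4b, Apoa4, Nostrin and Trim31. No match in a window says only that these letters are not in it.

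Outside Microfold cells, the class with the highest level in Hnf4ctrl samples was Secretory for 7 of the 32 higher genes (21.9%), Immature for 6 (18.8%) and Neuroendocrine for 5 (15.6%), against 6.01%, 6.44% and 11.8% of all genes tested. These shares come from samples that also gave the calls, so they describe the called genes and test nothing. The 15 higher genes with the smallest p, all with edgeR adjusted p of at most 0.0259, included Gstm1, Map3k15, Alox15, Cobl, Ggh, Slco1a5, Acvr1, S100a16, Csmd1, Cryab, Tmem123, Sbsn and Art2a. Alox15, a lipoxygenase, had 17, 16 and 14 UMIs in Hnf4dTEC replicates 1 to 3, against 2, 2 and 4 UMIs in Hnf4ctrl replicates 1 to 3. The 8 markers of Neuroendocrine cells summed to a median of 40.3 CPM (range 12.1 to 80.4) in Hnf4dTEC and 59.5 CPM (range 45.0 to 73.7) in Hnf4ctrl Microfold cells, with Neurod1 and Scg2 at 0.

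Gstm1, a glutathione transferase of a family of close copies, had 118, 141 and 142 CPM in Hnf4dTEC replicates, against 28.7, 18.8 and 25.4 CPM in Hnf4ctrl replicates (rise of 2.44, SE 0.30, edgeR adjusted p = 0.00375). Map3k15, a kinase of the MAP kinase cascade, rose by 2.48 (SE 0.33, edgeR adjusted p = 0.00506). A Map3k15 UMI was found in 41 of 67 Hnf4dTEC and 12 of 70 Hnf4ctrl cells after thinning, against 7.93% of Tuft and 47.97% of Neuroendocrine cells (54 of 76 Hnf4dTEC and 29 of 76 Hnf4ctrl cells before thinning). Cobl, which starts actin filaments, had 190, 105 and 107 CPM in Hnf4dTEC replicates and 32.8, 18.8 and 23.1 CPM in Hnf4ctrl replicates (rise of 2.42, SE 0.37, edgeR adjusted p = 0.0104). Acvr1, a receptor for bone morphogenetic proteins, rose by 2.34 (SE 0.40). Its UMIs were found in 19 of 67 Hnf4dTEC and 3 of 70 Hnf4ctrl cells after thinning (41 of 76 Hnf4dTEC and 10 of 76 Hnf4ctrl cells before), while 13.8% of Tuft and 33.2% of Neuroendocrine cells had one, more than in Hnf4ctrl Microfold cells. Csmd1, a complement regulator, averaged 602 ± 167 CPM in Hnf4dTEC and 198 ± 53.0 CPM in Hnf4ctrl samples (SD, n = 3 each; rise of 1.58, SE 0.28). Of the 13 higher genes named here, Gstm1, Map3k15 and Cobl passed without any 1 sample, and the other 10 did not. Those that passed numbered 7, 7 and 8 without Hnf4ctrl replicates 1, 2 and 3, and 4, 8 and 10 without Hnf4dTEC replicates 1, 2 and 3.

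Sbsn, the cornified cell protein suprabasin, had 71.1, 250 and 167 CPM in Hnf4dTEC replicates 1 to 3, against 8.20, 22.5 and 34.6 CPM in Hnf4ctrl replicates 1 to 3 (rise of 2.77, SE 0.53, edgeR adjusted p = 0.0231). It was the only 1 of 6 Keratinocyte markers with enough UMIs to test, Ivl was at 0, and the 6 summed to 82.6 to 283 CPM in Hnf4dTEC and 48.8 to 261 CPM in Hnf4ctrl Microfold cells, against 10757 CPM in Keratinocyte cells. The untested members went both ways. Over all samples, Krtdap had 11 UMIs in Hnf4dTEC and 89 in Hnf4ctrl Microfold cells, and Krt10 had 20 and 48. Krt1 had 19 in Hnf4dTEC and 5 in Hnf4ctrl Microfold cells, and Krt80 had 5 and 2. Rptn, another protein of the cornified layer, rose by 2.52 (SE 0.59, edgeR adjusted p = 0.0485) and Ifitm3, an interferon-induced membrane protein, by 1.753 (SE 0.37, edgeR adjusted p = 0.0337). Leaving out 1 sample moved the log2 fold change between 2.34 and 3.33 for Sbsn, between 2.15 and 3.83 for Rptn and between 1.39 and 2.07 for Ifitm3, always higher in Hnf4dTEC samples, but most such fits lost the call: Sbsn passed only without Hnf4ctrl replicate 3 (0.0353) or Hnf4dTEC replicate 1 (0.0249), Rptn only without Hnf4ctrl replicate 3 (0.00472), and Ifitm3 only without Hnf4ctrl replicates 1 (0.0375) or 2 (0.0497). Without another sample, edgeR adjusted p lay between 0.0585 and 0.0735 for Sbsn, between 0.0577 and 0.139 for Rptn and between 0.0561 and 0.113 for Ifitm3. A Rptn UMI was found in 52 of 67 Hnf4dTEC and 22 of 70 Hnf4ctrl cells after thinning (65 of 76 Hnf4dTEC and 29 of 76 Hnf4ctrl cells before thinning). In other classes it was found after thinning in 3.76% of Tuft, 28.4% of Neuroendocrine, 35.9% of Entero-hepato, 51.1% of Keratinocyte and 69.1% of Secretory cells. Of 12 stress genes, 11 were tested and 0 passed, which is near the 2.34% lower and 0.687% higher called over all genes. Their median log2 fold change was 0.37 (range -0.20 to 1.69), the highest being the chaperone partner Dnajb1 (edgeR adjusted p = 0.168). The part of stress in the other changes was not tested. Among other marker lists, Tuft markers summed to 121 to 818 CPM in Hnf4dTEC and 211 to 995 CPM in Hnf4ctrl Microfold cells, and myeloid markers to 339 to 760.2 CPM in Hnf4dTEC and 398 to 1738 CPM in Hnf4ctrl cells, so both overlapped. Thymocyte markers gave 2 UMIs in Hnf4dTEC and 5 UMIs in Hnf4ctrl cells, with Cd3e, Cd3g and Rag1 at 0.

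**Figure D4:**
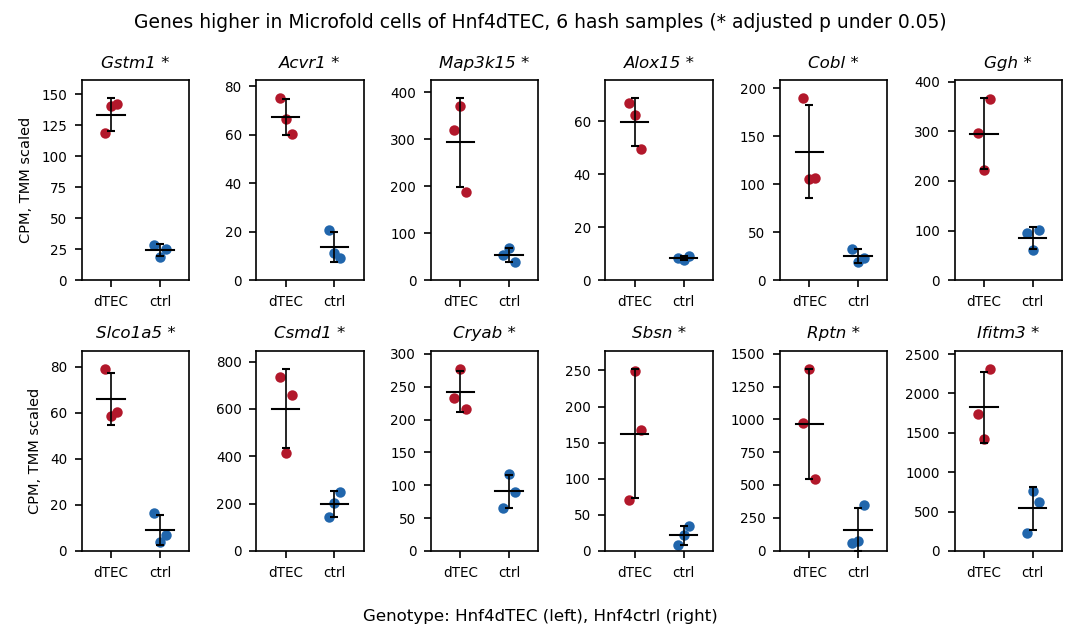
CPM with TMM scaling (vertical axes) of 12 genes that rose in the Microfold cells of 3 Hnf4dTEC (red, left) against 3 Hnf4ctrl (blue, right) hash samples. Points are samples, bars the mean and SD, and a star marks an edgeR adjusted p under 0.05. Axes start at 0, or below it for Rptn, whose SD in Hnf4ctrl samples exceeds the mean. In each panel the 3 Hnf4dTEC points lie above the 3 Hnf4ctrl points.

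Whether Microfold cells differed from the other annotated cells in how they changed was tested as an interaction of genotype with cell compartment, over 16812 genes. In Microfold cells 133 genes (0.791%) were lower by more and 94 (0.559%) were higher by more than in the other cells. Both tests called 64 lower and 26 higher genes, and 45 of the 109 lower genes did not pass the interaction. The fit gives 1 spread to sums of few Microfold cells and of many other cells, and the other cells of Hnf4dTEC samples held almost no Entero-hepato cells. Without Entero-hepato cells in the other compartment the counts were 141 and 90, and without Tuft cells they were 41 and 23.

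Fabp1 led by p, with 143 CPM in Hnf4dTEC and 1427 CPM in Hnf4ctrl Microfold cells, but 46.2 CPM in Hnf4dTEC and 44.0 CPM in Hnf4ctrl other cells (mean of 3 samples each; difference of the log2 changes -3.72, SE 0.34, edgeR adjusted p = 6.68e-12). Gp2 was the third, with 704 CPM in Hnf4dTEC and 3017 CPM in Hnf4ctrl Microfold cells, against 247 CPM in Hnf4dTEC and 216 CPM in Hnf4ctrl other cells (difference -2.49, SE 0.30, edgeR adjusted p = 8.11e-08). By class, summed Gp2 was at 2572 CPM in Hnf4dTEC and 1988 CPM in Hnf4ctrl Klk-rich cells and at 341 and 337 CPM in Tuft cells of Hnf4dTEC and Hnf4ctrl, while in Neuroendocrine cells it was at 45.1 CPM in Hnf4dTEC and 215 CPM in Hnf4ctrl samples. Ccl6, Anxa5 and Pglyrp1 also passed, with differences of -1.56, -1.24 and -1.03 (edgeR adjusted p = 0.000156, 0.000825 and 0.00654). Serpinb1a did not (-0.16, SE 0.23, edgeR adjusted p = 0.944), its level being 3625 CPM in Hnf4dTEC and 8106 CPM in Hnf4ctrl Microfold cells and 85.9 CPM in Hnf4dTEC and 178 CPM in Hnf4ctrl other cells. Ccl9 passed in the opposite direction (1.30, SE 0.26, edgeR adjusted p = 0.00119), with 5.64 CPM in Hnf4dTEC and 15.7 CPM in Hnf4ctrl other cells and 1203 CPM in Hnf4dTEC and 1322 CPM in Hnf4ctrl Microfold cells.

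The 10 lower genes with the smallest p were Fabp1, Prickle2, Gp2, Dbi, Tff1, Muc13, Basp1, Far2, Trf and Obp2a. Prickle2, of planar cell polarity, was at 4.93 CPM in Hnf4dTEC and 149 CPM in Hnf4ctrl Microfold cells, and at 14.7 CPM in Hnf4dTEC and 14.1 CPM in Hnf4ctrl other cells (difference -4.97, SE 0.60, edgeR adjusted p = 6.78e-08). Apoc3, by contrast, did not pass (difference -2.28, SE 1.15, edgeR adjusted p = 0.569), as it was also lower in the other cells, at 1.48 CPM in Hnf4dTEC and 25.0 CPM in Hnf4ctrl samples. Tff1 and Obp2a rested on single cells, since 1 cell held 89.5% and 80.3% of their Hnf4ctrl UMIs. The 10 higher genes with the smallest p included Rptn, Ifitm3, Csmd1, 1700003P14Rik, Gstm1, S100a8, Map3k15, Sbsn and Ltf, and 1 cell held 80.2% of the Hnf4dTEC UMIs of Ltf and 45.9% of those of S100a8. Ifitm3 was at 1758 CPM in Hnf4dTEC and 534 CPM in Hnf4ctrl Microfold cells, while the other cells were at 1552 CPM in Hnf4dTEC and 1554 CPM in Hnf4ctrl samples (difference 1.83, SE 0.26, edgeR adjusted p = 2.15e-06). Rptn was at 930.1 CPM in Hnf4dTEC and 160.1 CPM in Hnf4ctrl Microfold cells, with 126 CPM in Hnf4dTEC and 142 CPM in Hnf4ctrl other cells (difference 2.87, SE 0.39, edgeR adjusted p = 7.07e-07).

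**Figure D5:**
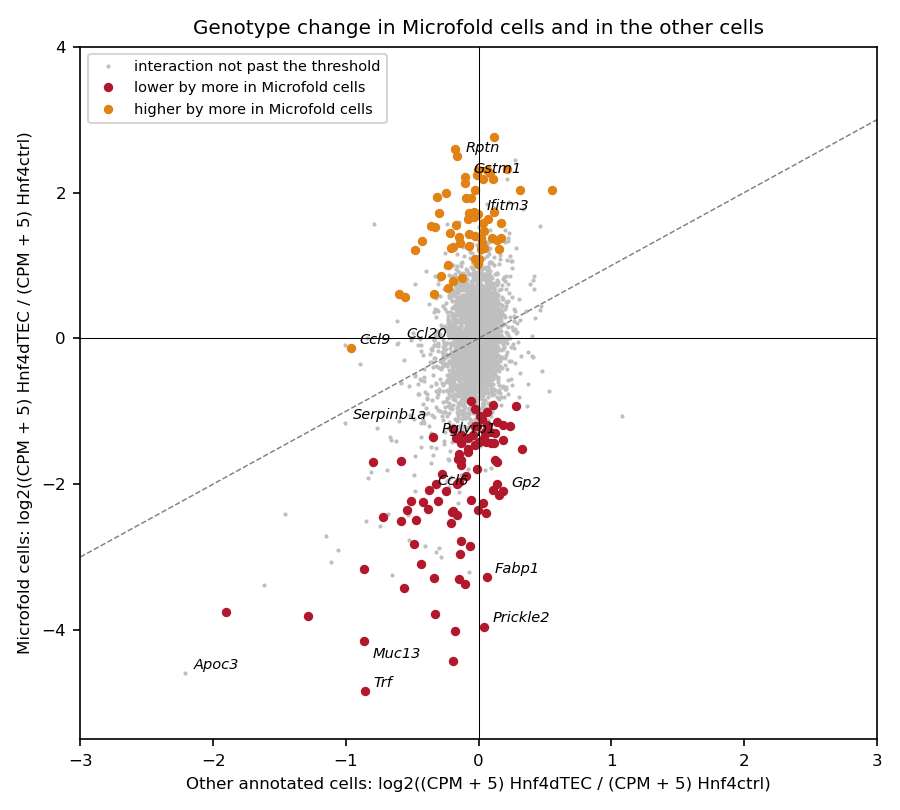
Change between genotypes in the other annotated cells (horizontal) and in Microfold cells (vertical) for the 4656 genes tested in Microfold cells, each as log2 of mean CPM + 5 in 3 Hnf4dTEC over 3 Hnf4ctrl samples; coloured points passed the interaction (88 lower by more, 64 higher by more in Microfold cells) and the dashed line marks equal change. Gp2, Fabp1 and Prickle2 lie near 0 on the horizontal axis, Apoc3 is low on both axes, and Ccl20 lies near 0 on the vertical axis.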

How the data were processed

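The deposited matrix holds UMI counts per gene and droplet of 1 library with 10x 3' v3.1 chemistry, made by the authors and not normalized. Cell Ranger 6.1.0, Seurat 4.0.2 and the build mm10 stand in the submitters' processing notes, while the matrix header names cellranger 7.0.0. Hash sample and class of each of the 9185 annotated cells come from the authors' deposited cell table, and how they clustered is not given in the sources used here. All cells share 1 droplet run, so no barcode occurs in more than 1 library. The class, the gene lists and the markers were chosen with earlier results of these data known.

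Counts were summed per hash sample over Microfold cells (Python 3.11.15, pandas 2.3.3, scanpy 1.11.5, scipy 1.17.1). Samples with at least 10 Microfold cells entered edgeR 4.0.16 in R 4.3.3 (filterByExpr, TMM, quasi-likelihood test, Benjamini-Hochberg adjustment over all genes, threshold 0.05, two-sided), which left out Hnf4dTEC replicate 4. The interaction took Microfold cells and all other annotated cells of each sample as 2 sums, with the sample as a block. The scripts were tested on simulated data. Since the hash samples are not stated to be separate animals, p-values measure only the spread between these samples, and counting intervals cover counting error only.

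Genes named were the M cell list, the targeted genes and Foxn1, the 20 lower and 15 higher genes with the smallest p among those called, the 15 with the highest ratio to other cells, called list members, and the 10 interaction genes in each direction; others are named as chosen after their values were seen (Reg3g) or as members of a list. Some genes that the rule names are not reported here. Scrublet scored 14734 barcodes and marked 5 Microfold cells (3.29%) and 203 annotated cells (2.21%); of 2681 barcodes with 2 hash tags it marked 610 (22.8%). These cells stayed in, and leaving them out was an alternative, as were DESeq2 1.42.0, RLE factors, no count filter, at least 5 cells per sample, a replicate block, cells thinned to 5000 UMIs and leaving out each sample. Positions come from GENCODE release 21, which matched 54349 of 55487 gene identifiers, and promoters from RefSeq.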

Additional observations from a re-analysis of the deposited data

Results flagged for a closer look

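The change between genotypes differed between Microfold cells and the other annotated cells, by edgeR's interaction test, for 23 genes named in the report. Values are the log2 change of Hnf4dTEC over Hnf4ctrl samples in Microfold cells minus that in the other cells. Microfold cells went lower by more for 13 of them, with differences of -3.725 for Fabp1, -4.973 for Prickle2, -2.489 for Gp2, -2.294 for Dbi, -7.035 for Tff1, -3.37 for Muc13, -2.362 for Basp1, -4.404 for Far2, -5.986 for Trf, -7.27 for Obp2a, -1.561 for Ccl6, -1.244 for Anxa5 and -1.029 for Pglyrp1. They went higher, or less low, for 10, with differences of 2.868 for Rptn, 1.826 for Ifitm3, 1.909 for Csmd1, 2.893 for 1700003P14Rik, 2.569 for Gstm1, 2.219 for S100a8, 2.194 for Map3k15, 2.834 for Sbsn, 4.304 for Ltf and 1.3 for Ccl9. Most UMIs of Tff1 and Obp2a in Hnf4ctrl and of Ltf in Hnf4dTEC Microfold cells came from 1 cell each, so those 3 differences rest on single cells. No sample stood apart in the Microfold share of the 4 Hnf4dTEC samples, where the gap of the lowest to the next was 0.539 of the range, under Dixon's critical value.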

How the results depend on the processing

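Counts of lower and higher genes moved with the processing, and the cause was not tested. No count filter gave 406 lower and 196 higher genes of 19436 tested, thinning to 5000 UMIs gave 63 lower and 27 higher of 1849 (fewer genes tested), and leaving out Scrublet's doublets gave 59 higher. Leaving out 1 sample gave 21 to 67 lower and 7 to 28 higher genes. DESeq2 called 110 lower and 40 higher, of which 81 and 24 were among the 109 and 32. The interaction without Tuft cells in the other compartment called 41 lower and 23 higher of 14545, and 104 to 177 lower and 104 to 119 higher without 1 sample. The log2 share difference ranged from -1.04 to -0.63 without 1 sample.

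Deviations from the group mean had r = -0.0449, 0.0476 and -0.0256 between samples of the same replicate number. With 3 samples a genotype, these values cannot settle whether the numbers mark pairs. With the replicate block 55 lower and 18 higher genes were called, 52 and 17 of them among the 109 and 32, and the share difference was -0.62.

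Of 45 named genes that passed, none changed direction, but 75 of 270 values without 1 sample and 15 of 344 others lost the call. Changes of direction touched genes that did not pass. Ccl20 became 0.0197 without Scrublet's doublets and 0.0104 without cells of another top hash tag, Cxcl16 0.0079 and Prnp 0.047 without Scrublet's doublets. Under thinning Ccl9 became 0.033, Clu 0.0479, Gm50069 -0.0745, Prnp 0.0806 and Ccr2 -0.0158. Ccr2 was -0.0275 with no filter, -0.0012 with RLE factors, -0.0083 with DESeq2, -0.1073 with at least 5 cells and -0.086 with the block. Without 1 sample the ranges were -0.1899 to 0.064 for Ccl20, -0.267 to 0.0152 for Ccl9, -0.4415 to 0.3483 for Ccr2, -0.315 to 0.0362 for Clu, -0.5214 to 0.0236 for Cr2, -0.1514 to 0.3921 for Ecel1, -0.4501 to 0.8242 for Gm37800, -0.208 to 0.8413 for Gm38335 and -0.4163 to 0.0043 for Tnfrsf11b.

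Depth limits all of this, since sums rest on 18 to 33 cells a sample and 44 of the 109 lower genes had at most 12 UMIs in Hnf4dTEC samples. Genes under the filter were not tested.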

Other observations

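S100a8, a calcium-binding protein of neutrophils and stressed epithelium, had 311, 191 and 86 UMIs in Hnf4dTEC replicates 1 to 3, against 9, 43 and 102 UMIs in Hnf4ctrl replicates 1 to 3. It did not pass the test within Microfold cells (log2 fold change 2.34, SE 0.58, edgeR adjusted p = 0.0619), and 1 cell held 45.9% of its Hnf4dTEC UMIs. Dmbt1 had 197, 38 and 185 UMIs in Hnf4dTEC replicates, against 24, 52 and 63 UMIs in Hnf4ctrl replicates (log2 fold change 1.84, SE 0.51, edgeR adjusted p = 0.0831), and the groups overlapped. Gucy1b2 had 64, 259 and 112 UMIs in Hnf4dTEC replicates, against 274, 227 and 966 UMIs in Hnf4ctrl replicates (log2 fold change -1.34, SE 0.49, edgeR adjusted p = 0.177). Krt20, a keratin of mature gut lining that was at 581 CPM in Microfold cells and 103 CPM in Entero-hepato cells, overlapped between genotypes (log2 fold change -0.73, SE 0.32, edgeR adjusted p = 0.284).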
